A study of Mus musculus with 14 samples.

Results

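Synaptic adhesion molecules are surface proteins that join both sides of a synapse, and the set described here holds 50 mouse genes for them, sorted by known protein family into 14 families. The genes were taken by family and not by a measured value, although the set was proposed with earlier results of these data known. All 50 were among the 55401 genes of the deposited table. RNA was sequenced from 14 tubes of 4 to 5 neurons each, all EGFP-labelled cells of PiC in wild-type C57BL/6 mice. The groups were male PiC-MeA neurons (n = 3), female PiC-MeA neurons (n = 3), male PiC-PrL neurons (n = 4) and female PiC-PrL neurons (n = 4). PiC-MeA and PiC-PrL neurons carried EGFP from 0.1 µl of AAVretro-EGFP, a virus taken up at axon ends, placed in MeA or PrL, and no tube held uninfected cells. PiC, MeA and PrL are used as the labels give them, and no age of the mice is stated. Nothing in the labels says that the tubes came from separate mice, so the p-values measure only the spread between these tubes, which may be technical. The study asked how gene expression in PiC neurons differs between the sexes, for cells of either target.

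Neurexins sit mostly on the presynaptic side and bind neuroligins, LRRTMs and other partners across the cleft. LAR-type receptor phosphatases, also presynaptic, bind SLITRKs and the interleukin-1 receptor accessory proteins, and teneurins and FLRTs bind latrophilins. IgLONs are small immunoglobulin proteins held in the membrane by a lipid anchor, which pair with themselves and with each other and are known for roles in neurite outgrowth and synapse number. Contactins are anchored in the same way and act with the Caspr proteins on axons.

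Total counts ran from 6132985 to 15392217 per library. The 3 male PiC-MeA libraries detected 18964 to 20014 genes with a count each, while the 11 libraries of the remaining groups detected 12479 to 14908. The summed level of 6 pan-neuronal markers was 7680 to 20940 CPM (counts scaled to the library total with TMM factors) over all libraries, and all 6 and all 7 excitatory markers reached 10 counts in each group. The summed level of 11 inhibitory markers ran from 187.8 to 3219 CPM in male PiC-MeA, 44.7 to 234.3 CPM in female PiC-MeA, 137.8 to 439.3 CPM in male PiC-PrL and 364.8 to 5692 CPM in female PiC-PrL libraries. RNA of other cell types was present, and the 9 astrocyte markers summed to 1097 to 1374 CPM in male PiC-MeA, 318.4 to 412.3 CPM in female PiC-MeA, 641.1 to 2025 CPM in male PiC-PrL and 694.6 to 1192 CPM in female PiC-PrL libraries. The 6 oligodendrocyte markers summed to 335 to 2327 CPM and 7 microglial markers to 68.1 to 647.9 CPM over all libraries, with 6 of the 7 at 10 counts in each group. The 6 endothelial and mural markers summed to 17.4 to 92.7 CPM in male PiC-MeA, 0.378 to 2.44 CPM in female PiC-MeA, 18.3 to 139.2 CPM in male PiC-PrL and 0.563 to 114.4 CPM in female PiC-PrL libraries, and Cldn5 among them was at 0 throughout. Dlx1 of the inhibitory and P2ry12 of the microglial list were also at 0, but other genes cover their whole intervals, a case taken up next. In such pooled tubes, fewer cells of a type and less RNA per cell cannot be told apart.

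Of the 50 genes, 33 reached 10 counts in every library, 44 passed the low-count filter, and 5 were listed at 0 in every library. Those 5 were Lrrtm1, Lrrtm2 and Lrrtm3, postsynaptic leucine-rich partners of neurexins, and Flrt1 and Flrt3, leucine-rich partners of latrophilins. Each lies wholly inside a longer gene of GENCODE M21 (mm10). Lrrtm1 lies in Ctnna2 (chr6:76881637-77979699), Lrrtm2 in Ctnna1 (chr18:35118859-35254779), Lrrtm3 in Ctnna3 (chr10:63430098-65003667), Flrt1 in Macrod1 (chr19:7056810-7198057) and Flrt3 in Macrod2 (chr2:140395309-142392966). Their exons shared no base with exons of other genes, apart from 1.58% of the exon length of Lrrtm2.

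The same was seen across the table. Of 1252 protein-coding genes with no base of their interval free of another gene, 1243 (99.3%) were at 0 in all 14 libraries, against 2.93% of the 5842 genes with 50 to 99% of their interval free and 13.5% of the 13728 genes with over 99% free. A value of 0 for these 5 genes therefore does not show that their RNA was absent. Nrxn2, a neurexin, was different, since 91.1% of its interval is free of other genes and it had 3 counts in all 14 libraries together. Its relative Nrxn3 had 246.4 to 1595 CPM over the same libraries. Nlgn3, a neuroligin, has only 17.2% of its interval free and shares 41.2% of its exon length with Gm21986 on the same strand, so its counts are uncertain. In all, 17 members share exon bases with another gene, and how reads were split among such genes or close copies, such as those of Cntnap5a, is not stated.

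**Figure D1:**
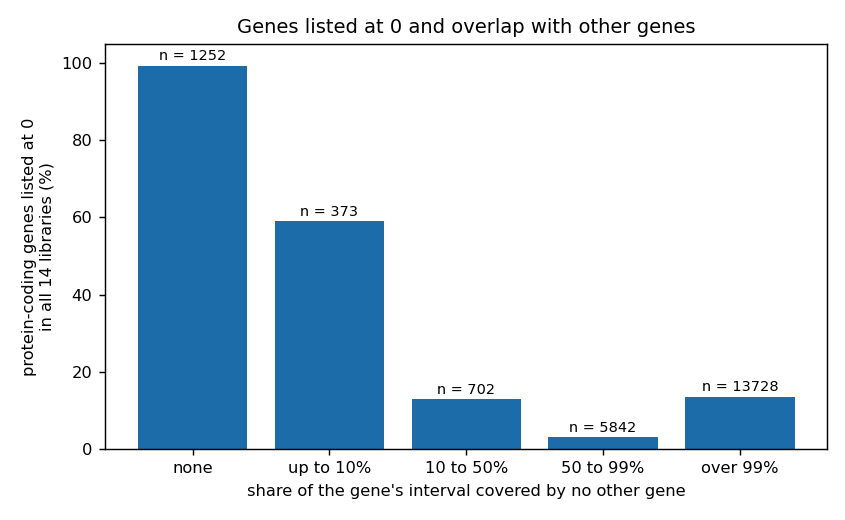
Share of protein-coding genes listed at 0 in all 14 libraries (vertical axis, percent) by the share of the gene's interval that no other gene covers (horizontal axis, GENCODE M21), with the number of genes above each bar. The bar for genes with no free base reaches 99.3%, that for 50 to 99% free is at 2.93%, and that for over 99% free is at 13.5%.

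Per kilobase of exon, the highest mean level over all 14 libraries was that of Lrrtm4 at 140.9 CPM per kb. The IgLON Ntm followed at 80.0, then the SynCAM Cadm2 at 74.0, the receptor phosphatase Ptprd at 73.8, the contactin Cntn5 at 72.7 and the neuroligin Nlgn1 at 71.5 CPM per kb. The last 4 lie closer together than their own spread, since the SD of log2 CPM within groups was 0.64 for Cadm2, 0.68 for Ptprd, 1.23 for Cntn5 and 0.52 for Nlgn1. The lowest members that passed the filter were Iglon5 at 0.359, Cntn2 at 1.61 and Cadm4 at 1.88 CPM per kb of exon. In each other family the highest member per kb of exon was Nrxn3 (58.6), Il1rapl1 (45.9), Cntnap2 (68.9), Slitrk4 (11.6), Flrt2 (9.45), Tenm2 (27.9), Ncam1 (30.2) or Nectin1 (3.26 CPM per kb).

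The order depends on the length used. Per kilobase of the interval free of other genes, Nlgn3 was highest at 29.9 CPM per kb, followed by Slitrk4 at 8.35 and Slitrk1 at 5.43. Lrrtm4 came 12th at 1.13 CPM per kb, Nlgn1 15th, Cadm2 17th, Ptprd 19th, Ntm 21st and Cntn5 33rd. The members span much more of the genome than most genes, with a median interval of 293.8 kb against 17.5 kb for protein-coding genes. Whether the counts hold reads from introns is not stated and was not tested. Lrrtm1, Lrrtm3, Flrt1 and Flrt3 share no exon base with another gene, yet lie inside one and had no counts. Of all protein-coding genes with no free base, 99.3% had no counts either. Exon length is the right divisor only for counts from exons, so ranks and family shares per kb of exon rest on that.

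Families were summed per kb of exon only, so their order carries the same limit. IgLONs had 201.1 CPM per kb of exon, or 16.3% of the sum over all 50 members, and contactins had 197.4. LRRTMs followed at 140.9, all from Lrrtm4, then SynCAMs at 115.5, Caspr proteins at 111.4, neuroligins at 90.8 and LAR-type phosphatases at 88.6 CPM per kb. FLRTs, at 9.45, and nectins, which join cells by calcium-independent adhesion, at 5.22 CPM per kb were lowest. In male PiC-MeA, female PiC-MeA, male PiC-PrL and female PiC-PrL libraries, the IgLON sum averaged 229.4 ± 18.9, 183.5 ± 41.3, 163.1 ± 45.9 and 231.0 ± 96.1 CPM per kb of exon (SD, n = 3, 3, 4 and 4). The ranges given by these SDs overlap for each pair of groups except male PiC-MeA with male PiC-PrL.

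**Figure D2:**
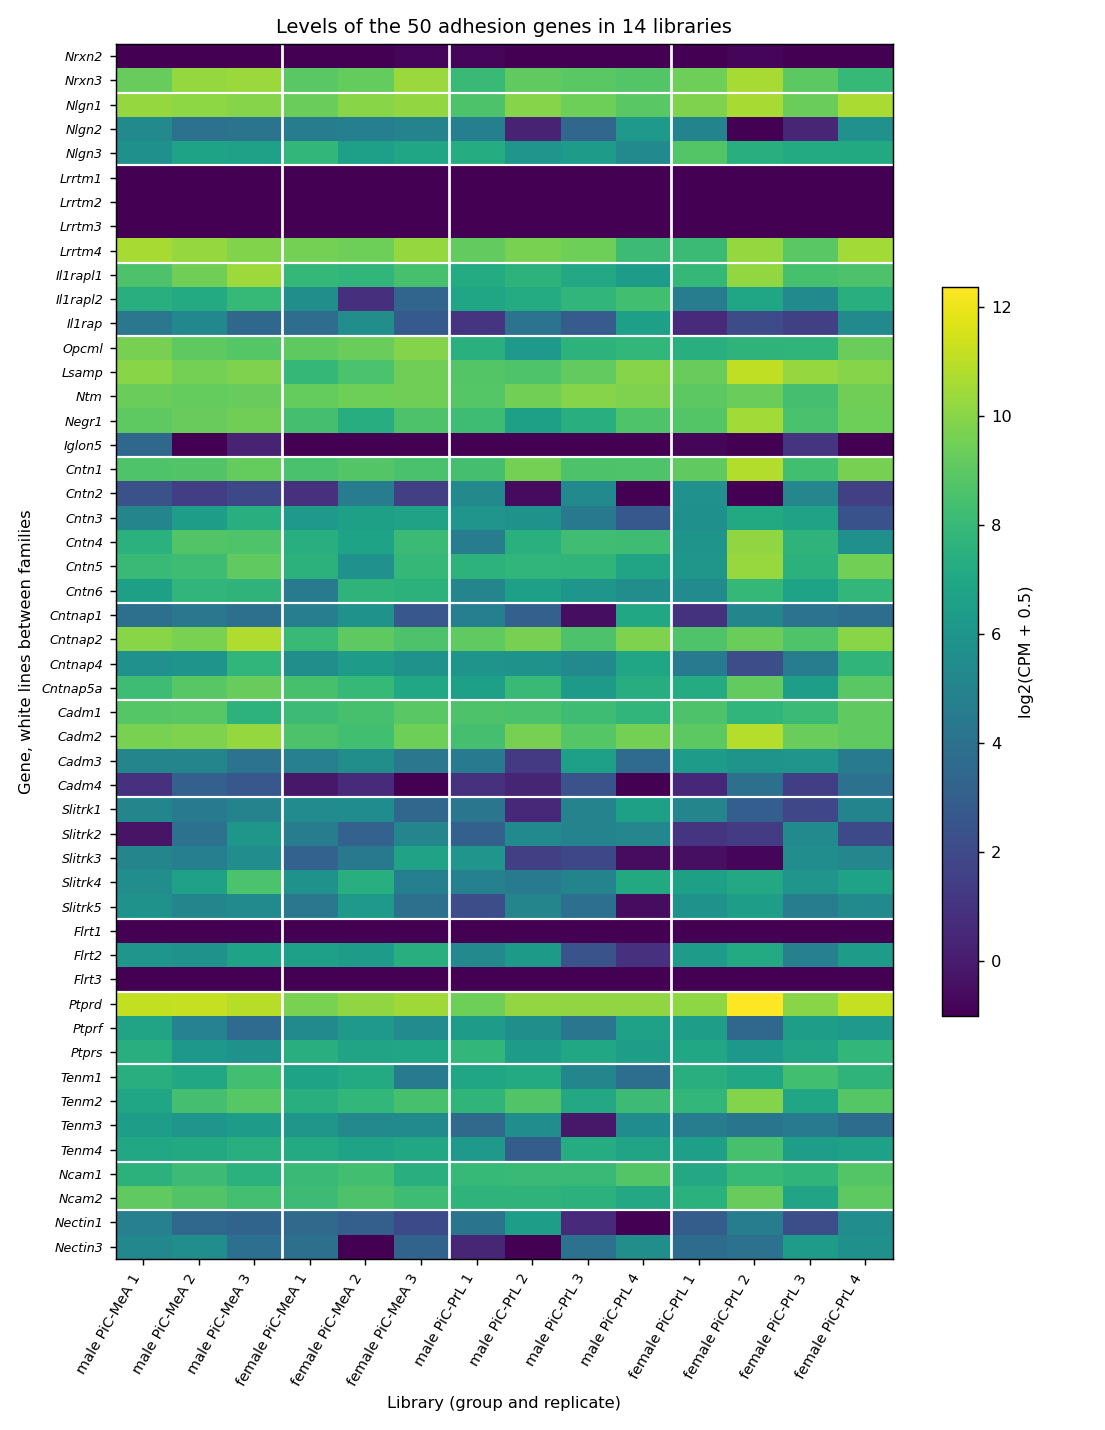
Level of each of the 50 members (rows, ordered by family) in each of the 14 libraries (columns, by group), as log2(CPM + 0.5) with the scale on the colour bar. The 5 genes that lie inside longer genes, with Nrxn2, form the rows near the bottom of the scale in every library, while Ptprd lies between 680.6 and 5268 CPM.

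Members differed widely in how steady they were among tubes of a group. Ntm, an IgLON also called neurotrimin, was the steadiest member that passed the filter, with a within-group SD of 0.38 on the log2(CPM + 0.5) scale. It had 655.1, 585.2 and 613.7 CPM in male PiC-MeA, 594.4, 670.8 and 701.5 in female PiC-MeA, 451.0, 737.7, 977.6 and 865.5 in male PiC-PrL and 501.9, 662.2, 340.2 and 695.7 CPM in female PiC-PrL libraries. All its groups overlapped. Nlgn1 and Ncam1, the classical neural cell adhesion molecule, came next, both at 0.52. Cntn2, an axonal contactin, was the least steady at 2.77, with 39.04, 0.163, 40.9 and 0 CPM in the 4 male PiC-PrL libraries alone. The SLITRK Slitrk3 followed at 2.54 and the neuroligin Nlgn2 at 2.31.

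The first comparison was of PiC-MeA with PiC-PrL neurons averaged over the sexes. Opcml, an IgLON named for its binding of opioids (chr9:27790775-28925410), rose in PiC-MeA neurons. It had 795.5, 525.0 and 460.3 CPM in male PiC-MeA and 527.3, 629.5 and 955.3 CPM in female PiC-MeA libraries, against 177.8, 72.4, 196.3 and 229.7 CPM in male PiC-PrL and 171.5, 204.8, 212.5 and 623.5 CPM in female PiC-PrL libraries. Of the PiC-PrL libraries, only female replicate 4 reached the range of the PiC-MeA libraries. The log2 difference was 1.51 ± 0.33 (SE), with an adjusted p of 0.0455 by edgeR's quasi-likelihood test. The difference was 1.81 ± 0.48 in males and 1.22 ± 0.47 in females, where the adjusted p was 0.079 and 0.403, and the difference between the sexes in it was 0.60 ± 0.67 (adjusted p = 0.755). The call rests on the full set of libraries. Leaving out any one of 13 libraries ended it, with an adjusted p of 0.0622 to 0.0992 and a log2 difference of no less than 1.19, and leaving out female PiC-PrL replicate 4 gave 1.83 (adjusted p = 0.00707).

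Opcml was the only member of 44 called in this comparison, beside a background of 0.822% of the 14599 genes tested. Without adjustment it was also the only member with p under 0.05, against 17.4% of all genes. Of the 44, 25 were higher in PiC-MeA, and their median log2 difference was 0.11, against 0.07 over all genes. Il1rapl1, described next, had the second smallest p on the higher side (log2 difference 0.76, adjusted p = 0.289). Tenm3, a teneurin that guides matching of connections, had 63.9 to 90.1 CPM in male PiC-MeA and 39.02 to 65.8 CPM in female PiC-MeA, against 0.417 to 45.8 CPM in male PiC-PrL and 12.7 to 23.7 CPM in female PiC-PrL libraries. Its log2 difference of 1.47 did not pass (adjusted p = 0.374). The lowest differences by p were those of Il1rapl2 (-1.14), Cntn1 (-0.56) and Lsamp (-0.46), none of which passed.

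**Figure D3:**
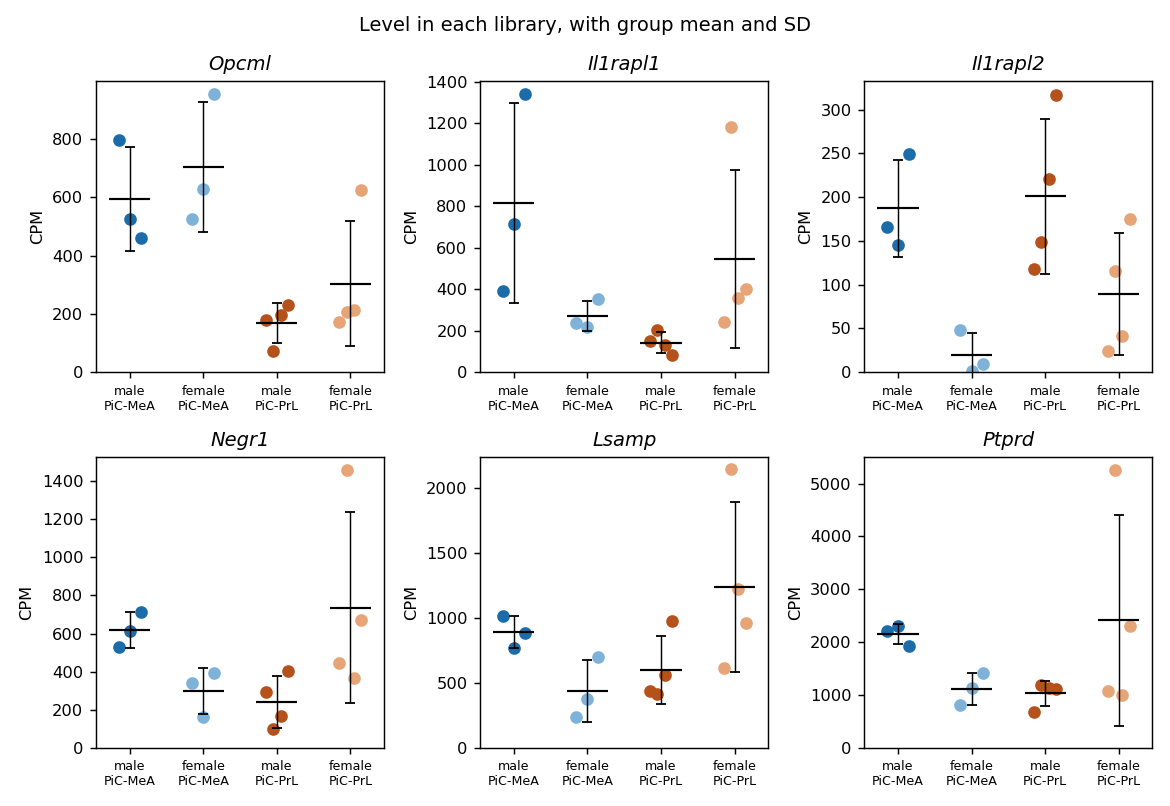
Level of 6 members in each library, in CPM on a linear axis, with 1 point per tube, a horizontal bar at the group mean and whiskers of 1 SD (n = 3, 3, 4 and 4). Opcml lies at 460.3 to 955.3 CPM in the PiC-MeA libraries of both sexes and at 72.4 to 229.7 CPM in 7 of the 8 PiC-PrL libraries, and Il1rapl1 is higher in male PiC-MeA than in male PiC-PrL libraries with no overlap.

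Among males, Il1rapl1 rose in PiC-MeA neurons. It encodes a postsynaptic receptor of the interleukin-1 receptor family that binds Ptprd across the cleft, and is known in humans as an X-linked intellectual disability gene (in mouse chrX:86740870-88115645). It had 392.8, 713.6 and 1341 CPM in male PiC-MeA libraries, against 149.9, 201.9, 132.4 and 82.4 CPM in male PiC-PrL libraries, which do not overlap. The log2 difference was 2.53 ± 0.52 (SE; adjusted p = 0.036, edgeR). In females it had 238.1, 218.4 and 353.3 CPM in PiC-MeA, against 239.3, 1181, 355.6 and 402.2 CPM in PiC-PrL libraries, and the log2 difference was -1.01 ± 0.53, which did not pass. The female groups overlapped. The call in males ended without any one of 10 libraries (adjusted p of 0.0503 to 0.139), and was kept without male PiC-MeA replicate 1 or female PiC-PrL replicate 1, 2 or 4. The lowest difference, 1.89, came without male PiC-MeA replicate 3. Mitochondrial genes took 4.80, 9.23 and 15.3% of the counts of the male PiC-MeA libraries, in the order of the Il1rapl1 values above, against 3.81, 5.31, 5.60 and 8.39% in male PiC-PrL libraries. Female PiC-PrL replicate 2, with 1181 CPM of Il1rapl1, had 12.2%. The order was not the same among male PiC-PrL libraries, where replicate 4 had the highest share (8.39%) and the lowest Il1rapl1 (82.4 CPM). As given above, male PiC-MeA libraries also had more genes with a count, and the part of either measure in the difference was not tested.

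Promoter windows were sought for the called members, Opcml and Il1rapl1, and any that overlapped an annotated exon was left out. Only a window of Il1rapl1 remained. The 250 bases before its RefSeq start (GRCm38.p6, chrX:88115949-88116198, minus strand) overlap no annotated exon.
Il1rapl1: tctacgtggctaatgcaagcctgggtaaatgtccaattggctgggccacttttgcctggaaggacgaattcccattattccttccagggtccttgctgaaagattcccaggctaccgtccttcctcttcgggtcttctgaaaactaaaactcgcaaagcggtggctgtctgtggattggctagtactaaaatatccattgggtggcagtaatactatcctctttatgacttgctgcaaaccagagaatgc
It is in lower case throughout because it held none of 3 motifs searched on both strands. Those were the cyclic AMP response element TGACGTCA, the GC box GGGCGG and the TATA box TATAAA. RefSeq windows of 300 bases were found for 38 of the 50 members, 52 windows in all. The cyclic AMP element was in 3 of the 52 (5.77%, those of Ptprs, Slitrk2 and Tenm3) against 1.79% of the 32851 windows of all genes, the GC box in 19 (36.5%) against 35.7%, and the TATA box in 3 (5.77%, those of Cntn1, Lrrtm4 and Tenm1) against 13.6%. A match describes letters in a window and not a site in use.

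Il1rapl1 was the only member of 44 called among males by edgeR, beside 0.603% of all genes. With unadjusted p under 0.05, 12 members were higher in male PiC-MeA neurons and 0 were lower, which is 12 of 44 beside 22.2% of all genes in either direction. Of the 44, 31 were higher, with a median log2 difference of 0.79 against 0.16 over all genes. Negr1, an IgLON of neurite growth, had 527.1, 611.2 and 713.7 CPM in male PiC-MeA, against 294.7, 97.0, 168.4 and 404.9 CPM in male PiC-PrL libraries, with no overlap and a log2 difference of 1.36 ± 0.51 (adjusted p = 0.114). Ptprd had 2216, 2313 and 1934 CPM in male PiC-MeA, against 680.6, 1193, 1137 and 1115 CPM in male PiC-PrL libraries, also apart (1.06 ± 0.44, adjusted p = 0.151). Cntnap5a, a Caspr protein, differed by 1.65 ± 0.60 (adjusted p = 0.107) and Nrxn3 by 1.25 ± 0.50 (adjusted p = 0.141). Iglon5, the IgLON known in humans as the target of autoantibodies in a sleep disorder, had 137, 0 and 5 counts in male PiC-MeA libraries and 0 in all 4 male PiC-PrL libraries. The lowest by p were Cntn2 (-2.59), Ncam1 (-0.47) and Ntm (-0.29), none past the threshold.

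Among females, 0 members were called by edgeR, beside 0% of all genes. DESeq2's Wald test called 0 members, beside 628 of the 14599 genes. With unadjusted p under 0.05, 1 member was higher in PiC-MeA (Opcml) and 6 were lower, 7 of 44 beside 11.1% of all genes. Only 14 of 44 members were higher in PiC-MeA, with a median log2 difference of -0.32 against -0.06 over all genes. Lsamp, an IgLON first described in the limbic system, had 236.2, 378.6 and 700.8 CPM in female PiC-MeA, against 615.6, 2145, 1221 and 961.6 CPM in female PiC-PrL libraries. Only the highest PiC-MeA library reached into the PiC-PrL range. Its log2 difference was -1.49 ± 0.45 (adjusted p = 0.403, edgeR), and Negr1 (-1.30) and Ptprd (-1.12) also lay below 0 without passing. Tenm3 (1.33) and Ntm (0.25) were the next on the higher side. With the 3 male PiC-MeA libraries left out, 0 members were called among females and the members' median was -0.29.

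Between the sexes among PiC-PrL neurons, 0 members were called by edgeR, beside 0% of all genes. DESeq2's Wald test called 2 of the 44, Il1rapl1 and Negr1, beside 1017 of the 14599 genes. With unadjusted p under 0.05, 9 members were lower in males and 0 were higher, 9 of 44 beside 14.3% of all genes. Of the 44, 32 were lower in males, with a median log2 difference of -0.82 against -0.03 over all genes. Il1rapl1 differed by -1.94 ± 0.49 and its male and female PiC-PrL libraries, given above, did not overlap (adjusted p = 0.283, edgeR). Negr1 had 294.7, 97.0, 168.4 and 404.9 CPM in male PiC-PrL, against 443.6, 1461, 368.1 and 672.8 CPM in female PiC-PrL libraries, where 1 male value lies above the lowest female one (-1.61 ± 0.48, adjusted p = 0.283). Ptprd differed by -1.23 ± 0.41 (adjusted p = 0.283), with 5268 CPM in female PiC-PrL replicate 2 and 1001 to 2312 CPM in the other female PiC-PrL libraries. Without that library the differences were -0.50 for Ptprd, -1.03 for Negr1 and -1.23 for Il1rapl1, and with the trend on gene span removed, as described further on, they were -0.31, -0.82 and -1.13. Il1rapl2 (1.17), Ntm (0.46) and Il1rap (1.36), the accessory chain of interleukin-1 receptors, were the nearest to the threshold on the higher side.

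Between the sexes among PiC-MeA neurons, 0 members were called by edgeR, beside 0% of all genes. DESeq2's Wald test called 2 of the 44, Il1rapl2 and Cntnap2, beside 777 of the 14599 genes. With unadjusted p under 0.05, 6 members were higher in males and 0 were lower, 6 of 44 beside 12.4% of all genes. Of the 44, 29 were higher in males, with a median of 0.34 against 0.12 over all genes. Il1rapl2, the X-linked relative of Il1rapl1 (chrX:137570608-138846946), had 166.2, 145.2 and 249.9 CPM in male PiC-MeA, against 48.2, 1.29 and 9.65 CPM in female PiC-MeA libraries, with no overlap. Its log2 difference was 3.25 ± 1.00 (adjusted p = 0.298, edgeR). Cntnap2, a Caspr protein of axons known in humans as an epilepsy and autism gene, had 1030, 803.0 and 1751 CPM in male PiC-MeA, against 266.9, 523.3 and 395.0 CPM in female PiC-MeA libraries, also apart (1.60 ± 0.44, adjusted p = 0.298). With the trend on gene span removed the differences were 2.30 for Il1rapl2, 0.89 for Cntnap2 and 0.72 for Il1rapl1. Il1rapl1 was at 392.8 CPM or more in males and 353.3 CPM or less in females (1.60 ± 0.56, adjusted p = 0.298). Nlgn3 (-0.78), Ptprs (-0.40) and Cntn2 (-1.49) were the nearest to the threshold on the lower side. The astrocyte markers given above were also higher in every male PiC-MeA than in any female PiC-MeA library, and their part in these differences was not tested.

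The male minus female differences were then compared between the targets, as PiC-MeA minus PiC-PrL. By edgeR 0 members were called, beside 0% of all genes. DESeq2's Wald test called 2 of the 44, Il1rapl1 and Negr1, beside 1175 of the 14599 genes. With unadjusted p under 0.05, 11 members had a positive difference and 0 a negative one, 11 of 44 beside 15.6% of all genes. Il1rapl1 differed most clearly, by 3.54 ± 0.75 on the log2 scale, since its sex difference was 1.60 in PiC-MeA and -1.94 in PiC-PrL neurons. Negr1 (2.66 ± 0.73), Ptprd (2.18 ± 0.63) and Lsamp (2.07 ± 0.62) followed, and all 4 had an adjusted p of 0.152 by edgeR. With the trend on gene span removed they were 1.85 for Il1rapl1, 0.99 for Negr1, 0.71 for Ptprd and 1.01 for Lsamp. Ntm (-0.55), Cntnap1 (-2.10), a Caspr protein of the junctions beside nodes of Ranvier, and Ncam1 (-0.39) lay on the negative side. Of the 44, 33 were positive, with a median of 1.09 against 0.31 over all genes. The 2 sex differences and the projection differences share libraries, so their signs are not separate evidence.

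By family, 5 of 6 contactins were higher in male PiC-MeA than male PiC-PrL neurons (median log2 difference 0.87), and 5 of 6 were lower in female PiC-MeA than female PiC-PrL neurons (median -1.06). All 6 contactins were lower in male than female PiC-PrL neurons (median -0.95), and 5 of 6 higher in male than female PiC-MeA neurons (median 0.31). All 4 teneurins were higher in male PiC-MeA than male PiC-PrL (median 1.08) and in male than female PiC-MeA neurons (median 0.49). All 4 SynCAMs were lower in male than female PiC-PrL neurons (median -0.71). Of the IgLONs, 4 of 5 were higher in male PiC-MeA than male PiC-PrL neurons (median 1.355). Only 1 of 3 interleukin-1 receptor accessory proteins (median -0.10) and 1 of 3 LAR-type phosphatases (median -0.31) were. Over all tested genes, 53.4% were higher in PiC-MeA among males, 47.5% among females and 52.4% averaged over the sexes. In males, 48.7% were higher among PiC-PrL and 53.6% among PiC-MeA neurons. The 5 SLITRKs were all higher in PiC-MeA neurons averaged over the sexes (median 0.60), and both nectins were lower (median -0.88). Within each sex only 3 of the 5 SLITRKs were higher. Of the 2 nectins, 0 were higher among females and 1 among males (median 0.14). These counts were the same with DESeq2 size factors in place of TMM, except that 4 of 5 SLITRKs were then higher among males. No contactin, teneurin, SynCAM, SLITRK or nectin passed the adjusted threshold in any of these comparisons by edgeR.

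**Figure D4:**
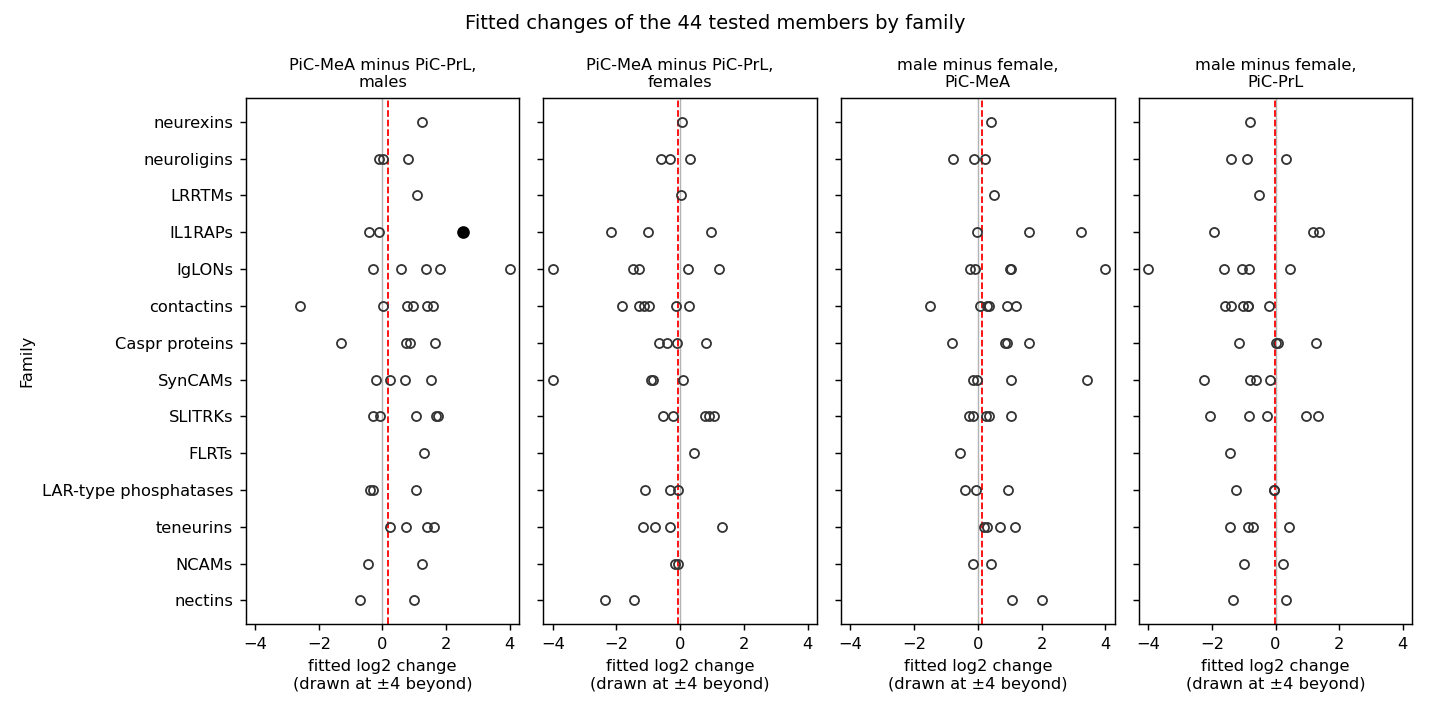
Log2 difference of each tested member (1 point each, by family down the page) in 4 comparisons, 1 panel each, with a filled point for a member called by edgeR, a dashed line at the median of all tested genes and values beyond 4 on either side drawn at 4. Points of the contactins lie mostly right of 0 for PiC-MeA minus PiC-PrL in males and left of 0 in females, and Il1rapl1 is the filled point in males.

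Among males and between the sexes, the differences of the longest members lay near those of other long genes. Of the 19 members of 500 kb or more, 17 were higher in male PiC-MeA than male PiC-PrL neurons (median log2 difference 0.97), and the 215 other tested genes of that span had a median of 1.12. The 25 members under 500 kb had a median of 0.01. The 5737 other genes under 20 kb, a narrower range of span, had one of -0.54. The shorter members did not follow the other genes of their span in this comparison. The 8 members of 10 to 30 kb had a median of 0.54 against -0.26 for other genes, while the 6 of 30 to 100 kb had -0.35 against 0.50 and the 4 of 100 to 300 kb had -0.21 against 1.09. Between the sexes among PiC-PrL neurons the median was -0.85 for the long members and -0.69 for the other long genes. Among PiC-MeA neurons it was 0.92 and 1.00. For the difference of the sex differences it was 1.64 and 1.77. The medians lay further apart for PiC-MeA minus PiC-PrL averaged over the sexes (0.105 for the long members, 0.421 for the other long genes). The same held among females (-0.792 and -0.463).

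Single libraries varied in the same measure. The median of long genes outside the set, less that of short genes, relative to the mean of all libraries, was 0.42, 0.52 and 1.40 on the log2 scale in male PiC-MeA, -0.76, -0.52 and 0.03 in female PiC-MeA, -0.96, 0.46, -0.55 and -0.02 in male PiC-PrL and -0.39, 1.67, -0.39 and 0.70 in female PiC-PrL libraries. The library with the highest value, female PiC-PrL replicate 2, was also the one with 5268 CPM of Ptprd, 2145 CPM of Lsamp and 1461 CPM of Negr1. Without it the members' median was -0.45 for male minus female in PiC-PrL, -0.13 for PiC-MeA minus PiC-PrL in females and 0.69 for the difference of the sex differences. With the trend on span removed within each library, the members' median was 0.23 for PiC-MeA minus PiC-PrL in males and 0.17 in females. Over all genes it was then 0.11 and -0.01. The members' median was -0.23 for male minus female in PiC-MeA (0.06 over all genes) and -0.22 in PiC-PrL (-0.01 over all genes). For the difference of the sex differences it was -0.05, against 0.19 over all genes. The members' medians for females, for the sexes in PiC-MeA and for the difference of the sex differences thus turned in sign. So did the contactins between the sexes in PiC-MeA neurons (2 of 6 higher in males, median -0.76) and the teneurins (1 of 4, median -0.40). For PiC-MeA minus PiC-PrL in males, 4 of 6 contactins (median 0.17) and 2 of 4 teneurins (median 0.20) were then higher, and in females 3 of 6 contactins were lower (median -0.18). Between the sexes in PiC-PrL neurons, 5 of 6 contactins (median -0.39) and 3 of 4 SynCAMs (median -0.40) were lower in males, while all 5 SLITRKs were still higher in PiC-MeA neurons averaged over the sexes (median 0.74). Il1rapl1 in males then differed by 1.77 (adjusted p = 0.0532) and Opcml averaged over the sexes by 1.54 (adjusted p = 0.0579), and no member was called. What sets the long-gene measure in a library was not tested.

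**Figure D5:**
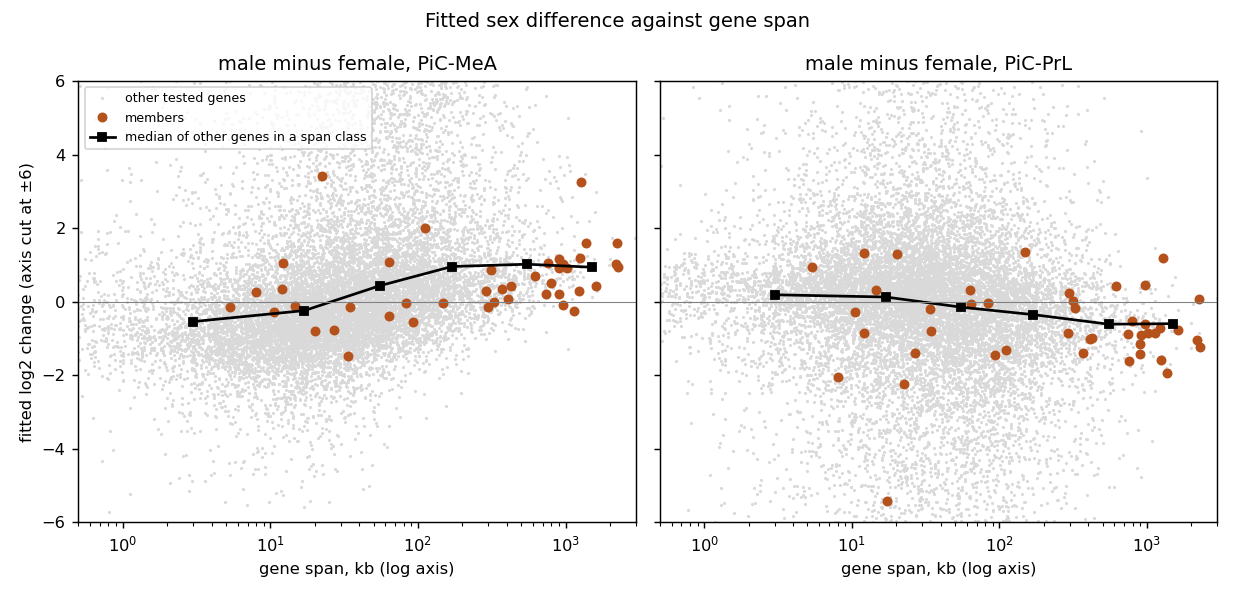
Log2 difference against the span of the gene's interval (kb, log axis), for male minus female in PiC-MeA (left) and PiC-PrL neurons (right), with small points for the other tested genes, large points for members and a line through the median of the other genes in each span range. In PiC-MeA neurons the line lies at -0.54 below 10 kb and at 1.02 in the range from 300 kb up, while in PiC-PrL neurons it lies at 0.18 and -0.62, with the long members around it.

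Of 39 partners and relatives outside the set, such as latrophilins, cerebellins and netrin-Gs, 32 passed the filter and 0 were called by edgeR in any of the 6 comparisons. They were higher in male PiC-MeA than male PiC-PrL neurons in 24 of 32 cases (median log2 difference 0.65, against 0.16 over all genes) and lower in male than female PiC-PrL neurons in 22 of 32 (median -0.34, against -0.03). With the trend on gene span removed the first was 18 of 32 with a median of 0.07, against 0.11 over all genes, and the second median was -0.09. The nearest to the threshold was Lrfn3, a postsynaptic leucine-rich protein (adjusted p = 0.0552 averaged over the sexes), which had 0.722 to 6.39 CPM in male PiC-MeA, 0 to 6.2 CPM in female PiC-MeA and at most 0.14 CPM in any PiC-PrL library. Dscam, an immunoglobulin protein of neurite self-avoidance, had 71.9 to 148.6 CPM in male PiC-MeA and 92.8 to 185.6 CPM in female PiC-MeA, against 8.96 to 42.9 CPM in male PiC-PrL and 17.8 to 145.7 CPM in female PiC-PrL libraries. Its log2 difference averaged over the sexes was 1.44 ± 0.52 (adjusted p = 0.137). Latrophilin Adgrl3, a receptor for teneurins and FLRTs, had 230.4 to 578.0 CPM in male PiC-MeA, against 148.3 to 360.0 CPM in male PiC-PrL libraries, which overlap.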

How the data were processed

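The authors deposited whole-number read counts per gene with a column for each library. Per the submitters' processing notes, the tools were featureCounts 2.0.1, HISAT2 2.2.1, Trimmomatic 0.39 and SAMtools, with build mm10. The annotation used, whether strand was considered and how shared reads were treated were not given in the sources used here. Of the 55401 gene identifiers, 55141 matched GENCODE M21, 54349 of them with the same version.

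The 50 members, their families and the 39 partners were chosen with earlier results of these data known. Genes were filtered with filterByExpr (minimum count 10, minimum total 15), which left 14599. After TMM scaling, a quasi-likelihood fit with robust spread (edgeR 4.0.16, R 4.3.3) gave each of the groups a mean, using all 14 libraries. Tests were two-sided. A gene was called where its p, adjusted by Benjamini-Hochberg across the 14599 genes, was under 0.05. Levels are TMM-scaled CPM, and per-kb levels divide by the length named. Fold changes are log2 values ± SE. The genes named in the comparisons were the members called or, where fewer than 3 of a direction were called, the 3 with the smallest p, together with the highest member of each family, the extremes of the levels and the members that were filtered out. Other members and the partners named in a comparison or for their spread were chosen after their values were seen. Alternatives were dropping the filter, requiring 10 counts in at least 7 libraries, DESeq2 1.42.0 size factors, its Wald test, a replicate block, a lowess trend on gene span removed within each library, and leaving out each library. The fit was tested on simulated data. The number of libraries per group and their depth limit the precision.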

Additional observations from a re-analysis of the deposited data

Results flagged for a closer look

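In the groups of 4 libraries, the highest or lowest library was checked against the others with Dixon's ratio for the 17 members that the naming rule picked for the comparisons, or 34 groups. Iglon5 in male PiC-PrL libraries, at 0 throughout, could not be checked. In 5 of the groups a library stood apart. Chance gives about 1 in 20 for groups picked without regard to their values. These members were picked by p on the same libraries, so that rate need not hold for them. Opcml had 623.5 CPM in female PiC-PrL replicate 4 and 171.5 to 212.5 CPM in the other female PiC-PrL libraries, and without that library the projection difference averaged over the sexes was larger. Nlgn3 had 447.1 CPM in female PiC-PrL replicate 1 and 136.9 to 165.4 CPM in the others. Iglon5 had 1.57 CPM in female PiC-PrL replicate 3 and at most 0.0805 CPM in the others, levels that rest on 22 counts and 1 count. Ptprd had 680.6 CPM in male PiC-PrL replicate 1 and 1115 to 1193 CPM in the others. Ncam1 had 448.1 CPM in male PiC-PrL replicate 4 and 249.7 to 265.7 CPM in the others.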

How the results depend on the processing

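The counts of members called, averaged over the sexes, were 0 with the span trend removed and 0 to 1 with a library left out, against 1. For males they were 2 without a filter, 2 by DESeq2's Wald test, 0 with the span trend removed and 0 to 2 with a library left out, against 1, the second member being Opcml (adjusted p = 0.0459 without a filter, 0.00688 by DESeq2). Where edgeR called 0, there were 2 without a filter and 2 by DESeq2 between the sexes in PiC-PrL, 2 by DESeq2 in PiC-MeA, and 3 without a filter and 2 by DESeq2 for the difference of the sex differences. Over all genes, the averaged comparison called 120, against 452 without a filter, 75 with the stricter filter, 1492 by DESeq2 and 39 to 128 with a library left out. Males called 88, against 159, 2022 by DESeq2 and 20 to 139. Females called 0, against 46 without a filter, 628 by DESeq2 and 0 to 1. The sex comparisons, with 0 called, had 38, 1 with the stricter filter, 1017 by DESeq2 and 0 to 1 in PiC-PrL, and 45, 777 by DESeq2, 5 with the span trend removed and 0 to 14 in PiC-MeA. The difference of the sex differences had 84, 1175 by DESeq2, 7 with the span trend removed and 0 to 5. Same-numbered libraries did not deviate together (r of -0.0388 to 0.0407 over 19 pairs), and with the replicate block 43 genes were called averaged over the sexes and 38 in males. The 1 member called in males under the block was Opcml (adjusted p = 0.04), while Il1rapl1 was at 2.31 (adjusted p = 0.0752).

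Of the 36 named differences, 4 values turned in sign. Ptprd among females was 0.05 with the span trend removed, and with a library left out Ntm among females ran from -0.04 to 0.39, Il1rap between the sexes in PiC-PrL from -0.46 to 3.64 and Cntn2 between the sexes in PiC-MeA from -2.12 to 0.71. For settings other than leaving out a library, 209 values kept direction and call, 14 became called, 3 lost the call and 1 turned. The cause was not tested. Groups of 3 or 4 tubes, and counts of genes that overlap others, limit what these values show.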
